A study of Mus musculus with 2 samples.

Results

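The let-7 family of mouse miRNAs consisted here of 9 mature 5p miRNAs, let-7a-5p, let-7b-5p, let-7c-5p, let-7d-5p, let-7e-5p, let-7f-5p, let-7g-5p, let-7i-5p and miR-98-5p. They were chosen by annotation as the 5p arms of every annotated hairpin whose symbol starts with Mirlet7, together with Mir98, which gave 12 hairpins and 9 of the 1146 hairpin arms that had reads. The cells were J1 ES cells, a mouse embryonic stem cell line, grown on gelatin in serum replacement medium with LIF. For its real-time PCR cultures the paper instead names medium with serum and LIF. One culture condition received AICAR at 1 mM for 24 h, an activator of AMP-activated protein kinase, and the control condition received the same volume of DMSO without AICAR (0 mM). Each condition was represented by 1 small RNA library, so no spread between replicates could be estimated, no test was made, and treatment and library cannot be told apart in any difference given here. Values with DMSO and with AICAR are those of these libraries.

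MiRNAs of the let-7 family are cut from hairpin precursors by Drosha and Dicer and pair with target mRNAs mainly through their seed, the bases 2 to 8 counted from the 5′ end. Well-known targets include Lin28a, Hmga2, Myc and Ras genes. In ES cells the RNA-binding protein LIN28 binds the terminal loop of let-7 precursors and recruits uridylyltransferases to their 3′ end, which holds mature let-7 low until differentiation. MiRNAs of the family are therefore widely used as markers of differentiated cells, whereas the miR-290 to miR-295 hairpins are typical of mouse ES cells.

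The mature sequences below, from RefSeq, carry the seed in capitals and show how alike the members are. All 9 were found in RefSeq, and each equalled the most abundant tag of its arm in the libraries, where a tag is a distinct read sequence with its read count.
let-7a-5p: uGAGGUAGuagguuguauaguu
let-7b-5p: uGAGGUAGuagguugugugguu
let-7c-5p: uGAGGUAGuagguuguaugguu
let-7d-5p: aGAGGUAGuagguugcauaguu
let-7e-5p: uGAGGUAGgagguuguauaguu
let-7f-5p: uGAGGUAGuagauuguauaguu
let-7g-5p: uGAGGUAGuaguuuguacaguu
let-7i-5p: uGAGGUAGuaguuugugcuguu
miR-98-5p: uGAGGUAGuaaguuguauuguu

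All 9 sequences were 22 nt long and shared the seed GAGGUAG. The differences between members fell at position 1, where only let-7d-5p differs from the rest, and at positions between 9 and 19. Some members differed by a single base. From let-7a-5p, let-7c-5p differed by A19G, let-7f-5p by G12A and let-7e-5p by U9G, with positions counted from 1 at the 5′ end. The most distant pair, let-7d-5p and let-7i-5p, differed at 6 positions. Outside the family, the same seed was annotated for let-7k and miR-1961, whose hairpins had 0 reads in both libraries. Such a count of 0 allows up to 3 reads, which was 0.159 reads per 1000000 clean reads (RPM) with DMSO and 0.142 RPM with AICAR. Annotated miR-1961 is 17 nt long, shorter than the 18 nt minimum of the tags, so its mature form could not be counted.

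The DMSO library held 18870345 clean reads and the AICAR library 21091226. Reads that matched any of 1174 annotated miRNA hairpins without mismatch made up 11.6% of all reads with DMSO and 15.7% with AICAR. Within the hairpin reads, the ES cell hairpins miR-290 to miR-295 held 28.9% with DMSO and 36.8% with AICAR. These miRNAs typical of ES cells were thus abundant in both libraries, although the paper cites a larger share for this cluster in mouse ES cells. The let-7 family, described above as low in ES cells, held 8.59% and 10.3% of the hairpin reads. Tags under 21 nt accounted for 9.49% of the hairpin reads with DMSO and 3.81% with AICAR. A tag was counted for a miRNA when it matched the hairpin with its 5′ end at most 2 nt and its 3′ end at most 4 nt from those of the most abundant tag of that arm. The parts of the larger hairpin share and of the smaller share of short tags in the differences below were not tested as causes, and values under other denominators and lengths are given beside them.

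Reads of the whole family were higher with AICAR. Each tag counted once, the family had 187325 reads with DMSO (9927 RPM) and 342176 reads with AICAR (16224 RPM). The ratio of AICAR to DMSO was 1.63 (95% interval 1.63 to 1.64), or 0.71 on the log2 scale. With 1 library per condition, the intervals given throughout are for counting error of reads alone. PCR copies of a molecule are counted as separate reads, so the intervals may be too narrow even for the sampling of molecules. Relative to the hairpin reads of each library instead of all clean reads, the ratio was 1.20 (1.20 to 1.21), with the family at 8.59% of the DMSO hairpin reads and 10.3% of the AICAR hairpin reads. In RNA from a whole culture, a change in the number of cells that express a miRNA and a change in its level per cell cannot be told apart.

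The members differed widely in level. let-7c-5p, let-7f-5p and let-7a-5p were the abundant members and together held 78.9% of the family reads with DMSO and 78.6% with AICAR. let-7c-5p had 3239 RPM with DMSO and 5160.25 RPM with AICAR, let-7f-5p had 2789.5 and 4534 RPM, and let-7a-5p had 1810.4 and 3054 RPM. Among all hairpin arms, let-7c-5p ranked 8 with DMSO and 6 with AICAR.

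A middle group was formed by let-7e-5p and let-7g-5p. let-7e-5p had 947 RPM with DMSO and 1704 RPM with AICAR. let-7g-5p, which is transcribed from within Wdr82, had 857 and 1372 RPM.

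The remaining members were much less abundant. let-7d-5p had 148 RPM with DMSO and 199.99 RPM with AICAR, let-7b-5p had 90.7 and 154 RPM, and let-7i-5p had 46.4 and 43.5 RPM. miR-98-5p was the lowest member, at 44 reads (2.33 RPM) with DMSO and 61 reads (2.89 RPM) with AICAR. All members have the same length, so these levels are compared without a length correction. The order from let-7c-5p through f, a, e, g, d, b and i to miR-98-5p was the same in both libraries, and no exact Poisson intervals of neighbours in the order overlapped. The highest member exceeded the lowest 1389-fold with DMSO and 1784-fold with AICAR.

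**Figure D1:**
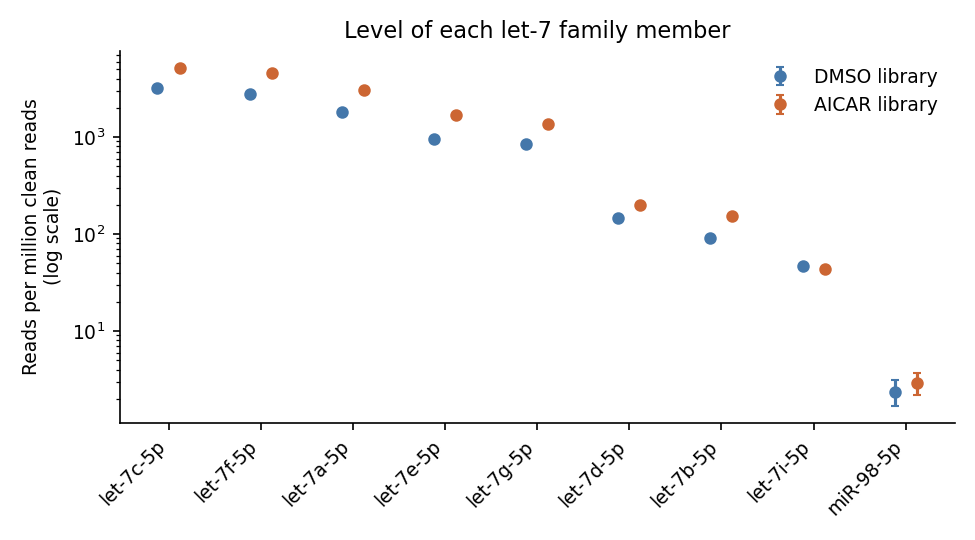
Level of each of the 9 members in reads per 1000000 clean reads on a log scale, with 1 point for each library and 95% exact Poisson intervals as bars, mostly smaller than the points. From let-7c-5p (3239 and 5160.25 RPM) to miR-98-5p (2.33 and 2.89 RPM), the order is the same in both libraries, and the AICAR point is the lower of the pair only for let-7i-5p.

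Between the libraries, 8 of 9 members had a ratio of AICAR to DMSO above 1, beside 56.9% of the 508 miRNAs that reached 1 RPM in either library. All 9 members passed this filter. Over all counted tags, the highest ratio was that of let-7e-5p, from 17861 reads with DMSO and 35934 with AICAR (1.80, 1.77 to 1.83). let-7b-5p had 1711 and 3239 reads (1.69, 1.60 to 1.80), and let-7a-5p had 34163 and 64411 reads (1.69, 1.66 to 1.71). The intervals of let-7a-5p and let-7b-5p overlapped, while that of let-7e-5p lay above the interval of let-7a-5p and overlapped that of let-7b-5p.

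Slightly lower ratios were found for let-7f-5p with 52639 and 95625 reads (1.63, 1.61 to 1.64), let-7g-5p with 16181 and 28946 reads (1.60, 1.57 to 1.63) and let-7c-5p with 61127 and 108836 reads (1.59, 1.58 to 1.61). These 6 members had ratios of at least 1.5, as did 25.6% of all miRNAs tested. let-7d-5p, which is encoded beside let-7a and let-7f, had a lower ratio than these members, from 2787 reads with DMSO and 4218 with AICAR (1.35, 1.29 to 1.42).

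let-7i-5p was the only member with a ratio below 1, and its interval included 1. It had 875 reads with DMSO and 918 with AICAR (0.939, 0.855 to 1.03). miR-98-5p had a ratio of 1.24 with an interval from 0.828 to 1.87, so a difference was not detectable at this depth.

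No member reached the study's fold threshold. The number past 2-fold was 0 of 9, whereas 12% of the 508 miRNAs had a ratio of at least 2, 10% had a ratio of at most 0.5, and 22% were past either limit. The median ratio over all 508 miRNAs was 1.10 (0.13 on the log2 scale), and 8 of 9 members lay above it. The ratio of the family total was higher than that of 78.9% of the miRNAs tested.

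**Figure D2:**
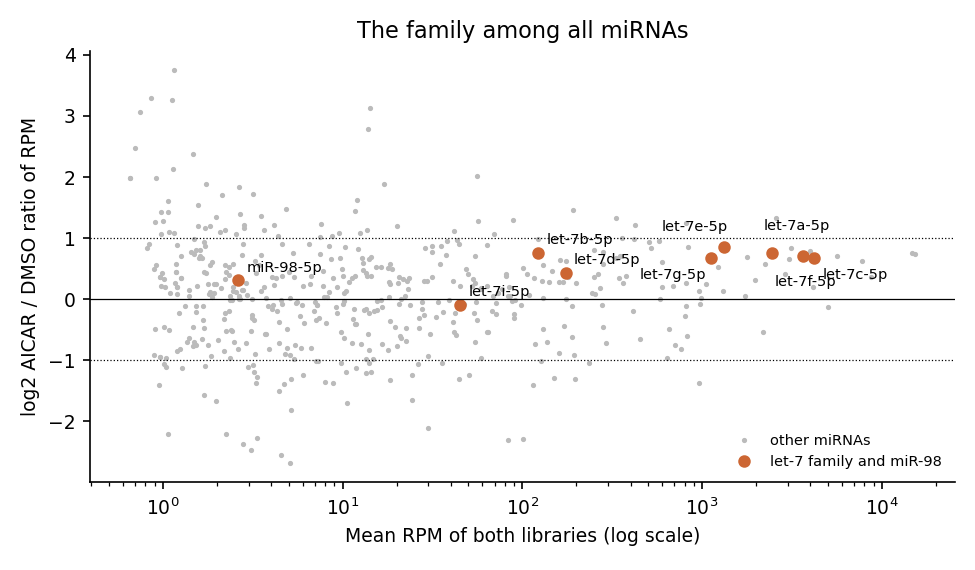
The log2 ratio of AICAR to DMSO against the mean RPM of both libraries on a log scale, for the 508 miRNAs that reached 1 RPM in either library, with the 9 members as large labelled points and dotted lines at a ratio of 2 and of 0.5. The abundant members lie close together near the family's log2 ratio of 0.71, and no member is outside the dotted lines.

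The denominator changed the direction of some members. Relative to hairpin reads, 6 of 9 members had a ratio above 1, beside 31.1% of all miRNAs tested, and the median over all miRNAs tested was 0.807 (-0.31 on the log2 scale). The 6 members above 1 ranged from 1.17 for let-7c-5p to 1.32 for let-7e-5p. let-7d-5p was at 0.996 (0.949 to 1.04), miR-98-5p at 0.912 (0.609 to 1.38) and let-7i-5p at 0.690 (0.629 to 0.758). Only for let-7i-5p did the interval lie below 1.

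**Figure D3:**
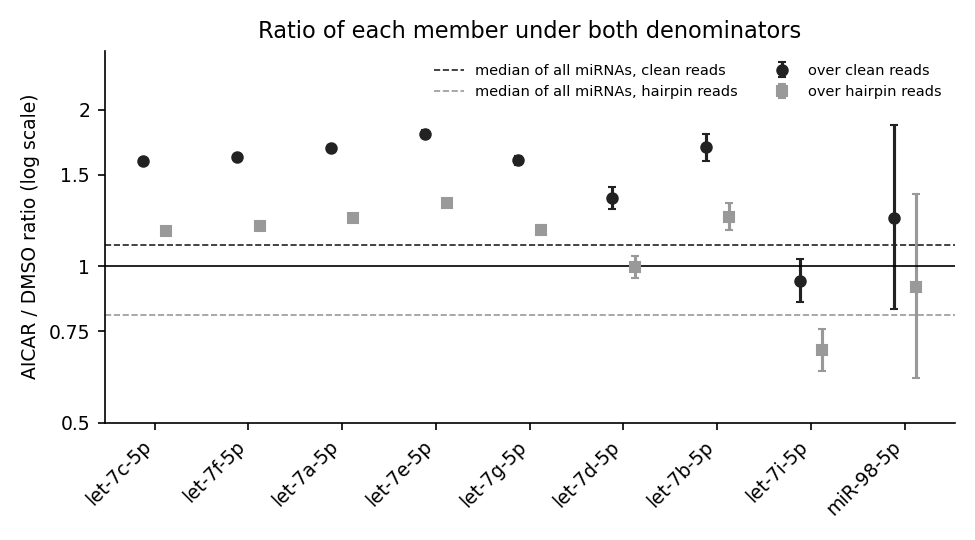
Ratio of AICAR to DMSO of each member on a log scale, over all clean reads (black circles) and over hairpin reads (grey squares), with 95% exact binomial intervals. Dashed lines mark the medians of all miRNAs tested, 1.10 over clean reads and 0.807 over hairpin reads, and let-7i-5p is the only member below the corresponding line under both denominators.

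Ratios between members do not depend on the denominator. Set against the sum of the other members, let-7e-5p was 1.11 times as high with AICAR as with DMSO (1.09 to 1.13). let-7d-5p was at 0.826 (0.788 to 0.867) and let-7i-5p at 0.573 (0.522 to 0.630). Apart from miR-98-5p, at 0.759 (0.507 to 1.15), the other members lay between 0.963 and 1.04. Over all counted tags, the members therefore differed unequally between the libraries, with let-7d-5p behind most others and let-7e-5p ahead. The position of let-7i-5p depended on its short tags, since with only the 22 nt reference tags it was at 0.900 of the other members (0.792 to 1.02), an interval that includes 1.

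The 3′ ends of the members differed between the libraries as well. Among reads that started at the reference 5′ end, 22 nt tags held 91.3% of the family reads with DMSO and 91.9% with AICAR. Tags of 18 to 20 nt held 1.03% with DMSO and 0.350% with AICAR, and tags of 21 nt held 3.38% and 2.25%. Tags of 23 nt or longer held 4.28% and 5.53%. The share of 18 to 21 nt tags was thus lower with AICAR by 1.81 percentage points (95% interval of the AICAR minus DMSO difference -1.92 to -1.71).

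The let-7i-5p tags stood apart from those of the other members. Its 18 to 20 nt tags held 41.5% of its reads with DMSO (38.3% to 44.8%) and 18.6% with AICAR (16.2% to 21.3%). In let-7b-5p and miR-98-5p these tags held 9.82% and 9.09% with DMSO and 3.58% and 1.67% with AICAR. In the other 6 members they held at most 1.63% in either library. The main tags of let-7i-5p show where its short tags end, with the last 3 bases of the full-length form in capitals.
let-7i-5p, 22 nt: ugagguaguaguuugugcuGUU
let-7i-5p, 19 nt: ugagguaguaguuugugcu

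The 22 nt tag of let-7i-5p had 385 reads with DMSO and 640 with AICAR, a ratio of 1.49 (1.31 to 1.69). The 19 nt tag had 223 reads with DMSO and 104 with AICAR, a ratio of 0.417 (0.327 to 0.529). The full-length and the shortened forms of let-7i-5p thus differed in direction between the libraries, and the ratio of 0.939 for all its reads combined both. Counting only the 22 nt reference tag of each member, let-7d-5p was still at 0.823 (0.783 to 0.865) of the other members. let-7e-5p was at 1.08 (1.06 to 1.10). By these tags let-7b-5p was the highest, at 1.12 (1.04 to 1.20), with an interval that held that of let-7e-5p. With 22 nt tags alone or with tags of at least 21 nt, all 9 members had a ratio above 1. The share of all miRNAs above 1 under these rules was not counted, so this is no trait of the members. The 22 nt tags of all other miRNAs together had a ratio of 1.43.

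**Figure D4:**
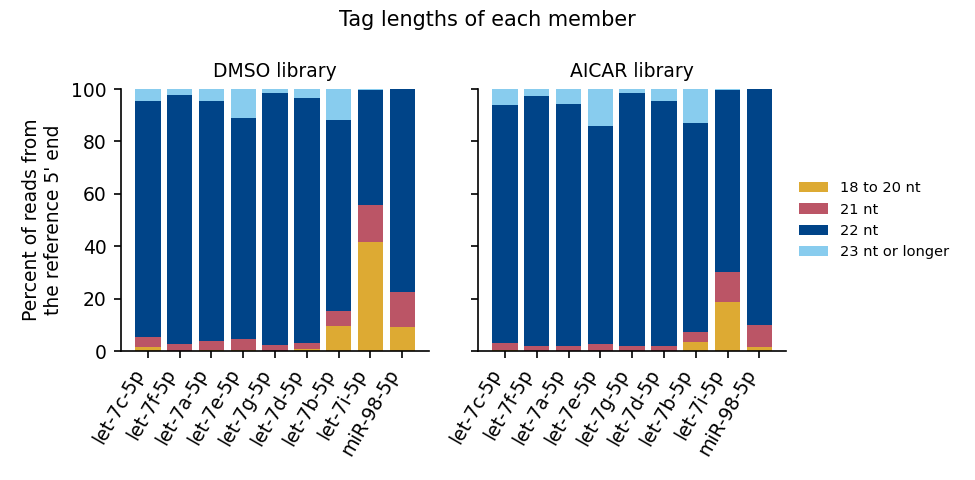
Percent of the reads of each member that start at the reference 5′ end, divided by tag length, with the DMSO library on the left and the AICAR library on the right. Tags of 22 nt hold most reads of every member except let-7i-5p with DMSO, where 18 to 20 nt tags hold 41.5%, against 18.6% with AICAR.

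The share of reads under 21 nt was lower with AICAR in 9 of 9 members, and in 76.3% of the 455 miRNAs with at least 1 RPM in both libraries. let-7i-5p was not extreme in this respect, since 55 of the 455 miRNAs had at least its share of such reads with DMSO and 72 with AICAR.

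Over the length classes, the ratio of AICAR to DMSO of the family increased with tag length. It was 0.556 for 18 to 20 nt tags (0.517 to 0.598), 1.09 for 21 nt tags (1.06 to 1.13), 1.65 for 22 nt tags (1.64 to 1.66) and 2.12 for tags of 23 nt or longer (2.07 to 2.18). For all other miRNAs together the ratios in these length classes were 0.548, 1.01, 1.43 and 1.58, and for all clean reads 0.767, 0.877, 1.16 and 1.08. The family values are of reads from the reference 5′ end. Those of other miRNAs are of all their counted tags, whatever the length of the reference tag, so the classes are not fully alike. The short family tags had a ratio close to that of short tags of other miRNAs, and the intervals of the classes from 21 nt upwards lay above those of other miRNAs. Of the 6 members with at least 10 reads in each class and library, the ratio increased from 18 to 20 nt over 22 nt to 23 nt or longer in 6, beside 56.2% of 48 other miRNAs with a 22 nt reference tag. This order is of point values, and depth was not matched between the sets. The intervals at 22 nt and at 23 nt or longer overlapped in let-7b-5p (1.72 to 1.98 and 1.57 to 2.21) and in let-7g-5p (1.571 to 1.634 and 1.633 to 2.252). The largest ratio at 23 nt or longer was that of let-7e-5p, at 2.29 (2.18 to 2.42), from 1977 and 5069 reads.

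**Figure D5:**
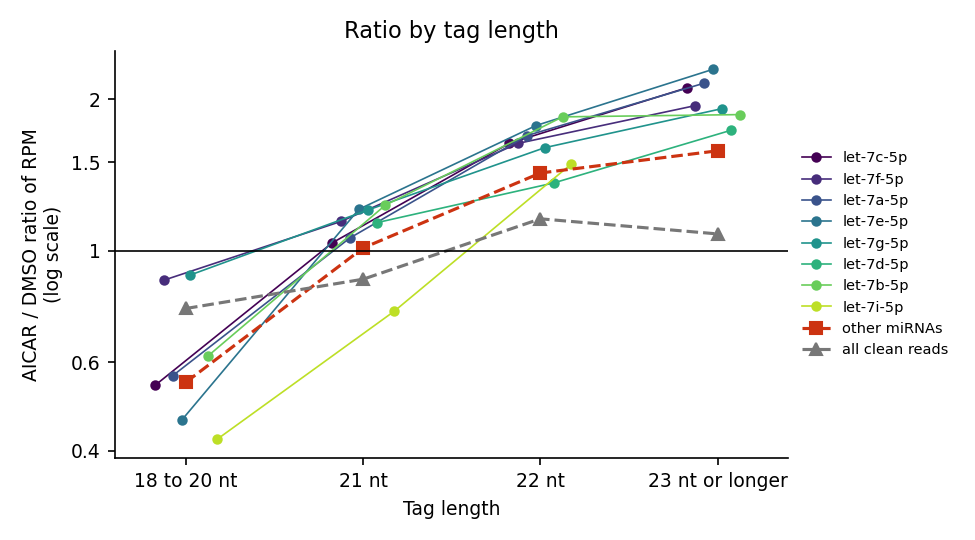
Ratio of AICAR to DMSO (RPM, log scale) by tag length for 8 members, for all other miRNAs together and for all clean reads; points with fewer than 10 reads in a library are left out, as is miR-98-5p. The plotted members lie between 0.421 and 0.895 at 18 to 20 nt and between 1.36 and 1.84 at 22 nt.

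The tags of 23 nt or longer counted so far match the hairpin exactly. Where the next hairpin base is U, an added U would match as well and be counted among them. In let-7a-5p, the 23 nt tag with this U had 1390 of the 1502 such reads with DMSO and 3471 of 3614 with AICAR. Tags with an added base that the hairpin does not hold are outside those counts and were taken from the libraries separately. The following let-7e-5p tags are shown because its next hairpin base is G, so that an added U can be seen in this member, and the bases beyond the mature sequence are in capitals.
let-7e-5p, encoded G: ugagguaggagguuguauaguuG
let-7e-5p, added U: ugagguaggagguuguauaguuU
let-7e-5p, added A: ugagguaggagguuguauaguuA

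The let-7e-5p tag with an added U had 1558 reads with DMSO and 4250 with AICAR. Of all reads of the let-7e-5p reference tag and its forms with 1 more base, this was 8.03% with DMSO (7.66% to 8.42%) and 10.4% with AICAR (10.1% to 10.7%). The form with the encoded G likewise had a larger share with AICAR, at 12.02% against 9.89%. The form with an added A had 4.48% with DMSO and 4.27% with AICAR, and the interval of that difference, -0.568 to 0.135 percentage points, included 0.

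In the members let-7a-5p, let-7b-5p, let-7c-5p, let-7d-5p and let-7g-5p the next hairpin base is itself a U, and so it is in the let-7f-2 hairpin. An added U cannot be told apart from the encoded base in these members. Counting any U at that place, the share was larger with AICAR in 7 of 9 members, and the interval of the difference lay above 0 in 5 (let-7a-5p, let-7c-5p, let-7e-5p, let-7f-5p and let-7g-5p) and below 0 in 0. Over the 455 miRNAs with at least 1 RPM in both libraries, the share of this U was larger with AICAR in 58%, with the interval above 0 in 18.2% and below 0 in 3.08%. The intervals narrow with depth, and most members are deeper than most of these miRNAs, so the shares past 0 are not directly comparable. For an A at that place, which no family hairpin encodes, the share was larger in 1 of 9, and the interval lay above 0 in 0 and below 0 in 2 (let-7b-5p and let-7f-5p). Over the 377 such miRNAs whose hairpin does not encode an A there, the corresponding shares were 48.5%, 10.1% and 5.57%. In let-7b-5p the added A had 10.7% with DMSO and 8.20% with AICAR. In let-7i-5p, whose next base is G, the added U had 13.3% with DMSO and 9.82% with AICAR, with an interval of the difference from -7.41 to 0.123 percentage points.

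Over the family, tails of 1 to 3 added A bases that the hairpin does not hold, after at least 20 nt of exact hairpin sequence, were found on 3.93% of reads with DMSO (3.84% to 4.02%) and 3.87% with AICAR (3.805% to 3.93%). Tails of U were found on 1.12% (1.07% to 1.17%) and 1.66% (1.62% to 1.70%). Most of these U tails were on let-7e-5p, namely 1980 of 2118 reads with DMSO and 5543 of 5778 with AICAR. In members with a hairpin whose next base is U, 1 added U matches the hairpin and is not counted as a tail. The U tail counts are therefore not directly comparable between members, nor are the family shares of U and A tails. Tags were not matched to the genome, so that an added base encoded at another locus cannot be told apart from a tail. These are tails of mature miRNAs; precursors were too long for the size selection of the libraries.

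The 5′ ends, which set the seed, were uniform. At least 97.7% of the reads of each member in each library started at the reference base, and over the family the share was 99.1% with DMSO and 99.5% with AICAR. The main exception was let-7c-5p, in which tags that lack the first base held 2.29% of the reads with DMSO and 0.955% with AICAR. Its most abundant shifted tag, gagguaguagguuguaugguu, had 1298 and 933 reads, a ratio of 0.643 (0.591 to 0.700), while the full-length let-7c-5p tag had a ratio of 1.63. let-7g-5p had tags that start 1 base earlier, at 100 reads with DMSO and 246 with AICAR (0.618% and 0.850%).

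Nearly all reads of the family hairpins came from the 5p arm, at 99.99% in both libraries. The 3p arms, the passenger strands, had 19 reads with DMSO and 43 with AICAR, a ratio of 2.02 (1.16 to 3.68). let-7d-3p was the main 3p arm, with 13 and 31 reads (2.13, 1.08 to 4.44). let-7e-3p had 1 and 8 reads (7.16, 0.960 to 318), miR-98-3p had 3 and 4 reads, and the 3p tag common to let-7a-1 and let-7c-2 had 2 and 0. Of the 12 hairpins, 7 had no 3p reads in either library (let-7a-2, let-7b, let-7c-1, let-7f-1, let-7f-2, let-7g and let-7i), which allows up to 3 reads in each. Among 201 hairpins with at least 1000 reads in both libraries together, the minor arm held a median of 2.38% of the reads, and 40.3% of these hairpins were at or under the highest share of the 11 family hairpins among them (0.624%, in let-7d).

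The hairpins lie at 8 loci of the GRCm38 genome. On chromosome 13, let-7a-1 (chr13:48538179-48538272, minus strand), let-7f-1 (chr13:48537829-48537917) and let-7d (chr13:48536012-48536114) lie in exons of the non-coding gene 6720427I07Rik. Their mature miRNAs had ratios of 1.69, 1.63 and 1.35. On the X chromosome, let-7f-2 (chrX:151912346-151912428, plus strand) and miR-98 (chrX:151913214-151913321) lie 785 nt apart in an intron of Huwe1, a ubiquitin ligase gene. On chromosome 15, let-7c-2 (chr15:85706603-85706697, plus strand) and let-7b (chr15:85707319-85707403) lie 621 nt apart in an exon of the non-coding gene Lncppara. let-7g (chr9:106178840-106178927, plus strand), in an intron of Wdr82, and let-7i (chr10:122985640-122985724, minus strand), in an exon of the pseudogene D630033A02Rik, have no other family hairpin beside them.

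Members with more than 1 hairpin could not be divided between their loci. Reads that fitted both hairpins made up 99.6% and 99.8% of let-7a-5p reads with DMSO and with AICAR, 99.7% and 99.7% of let-7c-5p reads, and 97.7% and 97.3% of let-7f-5p reads. For let-7f-5p the next hairpin base differs, being G in let-7f-1 and U in let-7f-2. The tag that ends in this G had 232 reads with DMSO and 235 with AICAR (0.906, 0.753 to 1.09), whereas the tag that ends in U, which may also be an added U, had 852 and 2133 reads (2.24, 2.07 to 2.43). These tags held under 3% of the let-7f-5p reads.

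At 3 loci the let-7 hairpin is joined by hairpins of the miR-99/100 and miR-125 families, which have other seeds. On chromosome 17, miR-99b (chr17:17830188-17830257, plus strand), let-7e (chr17:17830352-17830444) and miR-125a (chr17:17830812-17830879) lie within Spaca6. miR-99b-5p had 6188 reads with DMSO and 9013 with AICAR (1.30, 1.26 to 1.35). miR-125a-5p had 785 and 1425 reads (1.62, 1.49 to 1.77). The interval of let-7e-5p, 1.77 to 1.83, lay above that of miR-99b-5p, so that the miRNAs of this locus differed in ratio.

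On chromosome 16, let-7c-1 (chr16:77599657-77599750, plus strand) lies 656 nt from miR-99a, in an intron of Mir99ahg, and miR-125b-2 lies 46522 nt away. On chromosome 9, let-7a-2 (chr9:41536716-41536811, plus strand) lies 5211 nt from miR-100, in an intron of 3110039I08Rik, and miR-125b-1 lies 45114 nt away. miR-99a-5p had 4 and 1 reads and miR-100-5p had 6 and 17 reads, far below let-7a-5p and let-7c-5p, which other loci can also supply. miR-125b-5p had 106 reads with DMSO and 198 with AICAR (1.67, 1.31 to 2.14). The 5 partner miRNAs together had 7089 and 10654 reads (1.34, 1.30 to 1.39), and 0.989 relative to hairpin reads.

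The terminal loops bear on the motif GGAG, which LIN28 is known to bind. It was searched for on the strand of the hairpin, between the mature arms given by RefSeq. The motif was found in 9 of 12 family hairpins (75%), beside 8.29% of all 651 miRNA hairpins with both arms in RefSeq. This larger set includes the family hairpins. The loops of the family were longer, with a median of 30.5 nt against 16 nt and so had more places for a match. The last 20 bases before the 3p arm are shown for hairpins with and without it, from the GENCODE hairpins of GRCm38, with GGAG in capitals.
let-7a-1: cacccaccacugGGAGauaa
let-7d: uuuugcccacaaGGAGuuaa
let-7e: gaagacacccgaGGAGauca
let-7g: accacccgguacaGGAGaua
let-7i: auugcccgcuguGGAGauaa
let-7b: uguugccccuccgaagauaa
let-7c-2: ucugccccgcucugcgguaa
miR-98: aggccccaguaagaagauaa

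In the 9 hairpins with GGAG the motif lay 3 or 4 bases before the 3p arm. The 3 hairpins without it were let-7b, let-7c-2 and miR-98. Over all counted tags, let-7b-5p had a ratio of 1.69 and miR-98-5p of 1.24 (0.828 to 1.87). Members whose hairpins hold the motif ranged from 0.939 for let-7i-5p to 1.80 for let-7e-5p. With only the 22 nt reference tags, let-7b-5p was at 1.84 (1.72 to 1.98), above each of these members. The highest of them was let-7e-5p, at 1.77 (1.74 to 1.81), and these intervals overlapped. A relation of the ratios to the motif was not tested. For let-7c-5p the second hairpin, let-7c-1, holds the motif, and reads of both cannot be told apart.

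Members that differ by 1 base could in principle receive reads from each other by sequencing error. Tags 1 substitution away from the reference tags of let-7c-5p, let-7f-5p and let-7a-5p that belong to no member held a median of 0.00638% to 0.00934% of the reads of the parent tag, and at most 0.219%. The lowest true neighbour, let-7b-5p, which differs from let-7c-5p by A17G, had 2.33% of the reads of the let-7c-5p tag with DMSO and 2.63% with AICAR. Each member compared was thus above the level of such substituted tags. Only 1 of the 115 tags counted for the family fitted more than 1 member, an 18 nt tag of let-7a-5p and let-7c-5p that had 63 reads with DMSO and 12 with AICAR.

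Of 87 miRNAs outside the family with at least 100 RPM in both libraries, those with the log2 ratio nearest to that of the family total were miR-423-5p (4282 and 7006 RPM, ratio 1.64), miR-378a-3p (264 and 430 RPM, ratio 1.63) and miR-292-3p of the ES cell miR-290 to miR-295 group (1355 and 2198 RPM, ratio 1.62). This likeness is over 2 libraries only.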

How the data were processed

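Small RNA of 18 to 30 nt from J1 ES cells was sequenced by the authors, who removed low-quality and contaminant reads, merged identical reads into tags and deposited the read counts of each tag (18 to 44 nt) without normalization or alignment. An aligner was not used for these counts. The control sample is titled J1_U and labelled DMSO, and was taken as the DMSO library. From the deposited counts, tags were matched without mismatch to 1174 GENCODE vM21 miRNA hairpins (GRCm38). On each arm the most abundant tag was the reference, and tags starting within 2 nt and ending within 4 nt of it were counted. Tags that fit more than 1 miRNA counted fully for all of them. RPM are per 1000000 clean reads, and 1 read was 0.0530 RPM with DMSO and 0.0474 with AICAR. Ratios have exact conditional binomial 95% intervals, levels exact Poisson intervals, shares Wilson intervals, and differences of shares intervals built from these. Members and lists were chosen with earlier results of these data known. Named miRNAs are the 9 members and their 3p arms, 5 cluster partners, miRNAs with the same seed, and the 3 most alike outside the family. Alternatives covered denominators (TMM and median-ratio scaling by edgeR 4.0.16 in R 4.3.3 and Python), tag rules and filters. The comparison of bases past the mature 3′ end over all miRNAs was added after the data were seen. Steps were tested on simulated data. Python 3.11.15, numpy 2.4.6, scipy 1.17.1 and matplotlib 3.10.9 were used. Mapping to the genome, mRNA targets and predicted miRNAs were not analysed here.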

Additional observations from a re-analysis of the deposited data

How the results depend on the processing

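No paired analysis was possible because each group held 1 library, and for the same reason no library could be left out. The ratio of the family total (1.63) was above 1 under all 9 alternatives, at 1.20 relative to hairpin reads, 1.53 with TMM, 1.49 with median-ratio scaling, and 1.65 with only reference tags as with tags of at least 21 nt. The median member ratio (1.60) was 1.18, 1.495 and 1.46 under those 3 scalings and 1.63 with only reference tags. The partner miRNAs (1.34) turned to 0.989 relative to hairpin reads, and were 1.26 with TMM, 1.23 with median-ratio scaling and 1.41 with only reference tags. let-7d-5p turned from 1.35 to 0.996 relative to hairpin reads. let-7i-5p (0.939) was 1.49 with only reference tags and 1.31 with tags of at least 21 nt. Under the same rules let-7b-5p (1.69) was 1.84 and 1.811, above let-7e-5p at 1.77 and 1.808. At a fold of 1.5 instead of 2, 6 members passed in place of 0. All 6 had a ratio of at least 1.5, beside 25.6% of the 508 miRNAs, and the share of miRNAs past this fold in the other direction was not counted. Without tags under 21 nt the difference in the share of shortened tags was -1.16 in place of -1.81 percentage points, fewer tags being counted. The scalings divide by other totals and the tag rules count other tags; any further cause was not tested. Among single members, 28 values moved by more than their counting interval, and except for the 2 of let-7i-5p above these kept their direction. Another 100 values under alternatives kept their direction or moved by less than their counting interval. Depth limits miR-98-5p and the 3p arms most.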

Other observations

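On the family hairpins, 28 tags lay outside the limits around the reference tags, with 28 reads with DMSO and 27 with AICAR. Of these, 6 tags were 27 nt or longer and started at the reference 5′ end of the mature miRNA, with 10 reads with DMSO and 11 with AICAR. An added G that no hairpin of the member encodes was rarer than an added A and had a smaller share with AICAR in let-7a-5p (0.176% with DMSO and 0.0952% with AICAR), let-7c-5p (0.171% and 0.0931%) and let-7g-5p (0.191% and 0.0894%), with the interval of each difference below 0. The reads were few, at 60 and 62 in let-7a-5p and 31 and 26 in let-7g-5p. In let-7b-5p and let-7d-5p, which do not encode this G either, the interval included 0. The share over all miRNAs was not counted for G.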
